A study of Rattus norvegicus with 2 samples.

Results

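The MYC, MAX and MXD network was followed in cultured rat intestinal cells of the IEC6 line after 60 min with Na2S3 (sodium trisulfide, a polysulfide salt), against cells given water for 60 min. IEC6 is an untransformed line with epithelial morphology, established from the small intestine. Its members were the 10 genes Myc, Mycn, Mycl, Max, Mxd1, Mxd3, Mxd4, Mxi1, Mnt and Mlx, chosen by the gene name that the array files give to each non-control probe, out of 27234 named genes on the arrays. They were read by 13 probes in 14 spots per array, and 9 of the 10 had a probe well above background on both arrays. Each group was 1 sample on 1 single-colour (Cy3) Agilent array, with both arrays on 1 slide, so no value has a replicate check and no p-value is given, and "higher" and "lower" describe these arrays. The Na2S3 dose is 100 µM in the sample label and 100 mM in the labels' treatment protocol, and this conflict is not settled here. The same protocol, recorded for both samples, places the exposure in DMEM with 0.1% FCS after growth in 10% FCS, and names only Na2S3.

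MYC proteins are basic helix-loop-helix leucine zipper transcription factors that bind DNA as heterodimers with MAX, at E-box sites with the letters CACGTG, and activate genes for ribosome production, nucleotide synthesis and growth. MXD proteins, MXI1 and MNT compete for MAX, bind the same sites and recruit SIN3 and histone deacetylases, so that the balance of partners sets the output of the site. MLX is the MAX-like partner of the glucose-sensing MONDO proteins and also pairs with some MXD proteins. In the intestine Myc is a Wnt target of dividing crypt cells, and its short-lived mRNA makes it an early-response gene in many cell types.

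The members' own promoters were searched for the network's site. Promoter sequences of 8 members were matched by symbol in the RefSeq table (build GRCr8), namely those of Mxi1, Mxd1, Mycl, Max, Mnt, Mlx, Mxd4 and Mxd3, and the promoters of Myc and Mycn were not analysed here. Within the 250 bases before the annotated start, CACGTG, which reads the same on both strands, was present in 4 of these 8, against 1872 of 33469 promoters in the table (5.59%). The 4 matches began 33 bases before the start in Max, 70 in Mlx, 123 in Mnt and 197 in Mxd4. The 100 bases that hold each match are printed because this is the site the encoded proteins read, and capitals mark CACGTG. They lie at chr6:101395291-101395390 on the minus strand for Max, chr10:86519769-86519868 on the plus strand for Mlx, chr10:60197789-60197888 on the plus strand for Mnt and chr14:80786537-80786636 on the plus strand for Mxd4.
Max: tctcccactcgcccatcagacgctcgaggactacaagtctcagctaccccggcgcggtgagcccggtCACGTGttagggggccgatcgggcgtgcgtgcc
Mlx: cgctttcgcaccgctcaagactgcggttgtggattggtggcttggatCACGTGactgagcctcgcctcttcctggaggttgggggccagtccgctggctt
Mnt: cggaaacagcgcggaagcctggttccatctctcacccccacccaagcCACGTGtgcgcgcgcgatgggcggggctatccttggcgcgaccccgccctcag
Mxd4: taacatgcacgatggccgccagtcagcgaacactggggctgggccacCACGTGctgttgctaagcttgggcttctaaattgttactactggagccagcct
The antioxidant response element core TGACNNNGC, searched on both strands, was present in Max, Mlx and Mxd1, which is 3 of the 8, against 10.1% of all promoters. The matches that began 40 bases before the start in Max and 66 in Mlx overlapped the E-box, and the matches at 170 in Max and 182 in Mxd1 did not. Neither the AP-1 site TGANTCA (6.34% of all promoters) nor the ATF4 site core TGATGNAA (3.40%), both searched on both strands, was found in any of the 8 windows (0 of 8 for each). A match describes letters in this window and is not evidence of binding.

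Across the arrays as a whole, the share of the 45598 probes called well above background was 49.0% for Na2S3 and 49.5% for water. Of 15 intestinal epithelial markers with a probe, 6 were measured on both arrays. Among them, Krt8 had 18283 unscaled signal units in Na2S3 cells, against 15892 in water cells (scaled log2 ratio -0.01), and Cdh1 had 16264 units, against 14703 (-0.06). The rest were dimmer, with Cdx1 at 2051 units, against 2086, Krt19 at 251, against 215, Ascl2 at 196, against 183, and Krt18 at 158, against 142. Epcam, Krt20, Vil1, Cdx2, Lgr5, Fabp2, Alpi, Lyz2 and Chga had no probe well above background on both. Fibroblast markers were measured for 8 of 10 genes, including Vim at a scaled log2 ratio of 0.02, Col3a1 at 0.03, Col1a1 at -0.24, S100a4 at -0.27 and Col1a2 at -0.43, and immune and endothelial markers for 5 of 8. The measured fibroblast genes were mostly bright. In Na2S3 cells, against water cells, Col3a1 had 108685 unscaled units, against 91981, and S100a4 76511, against 79768. Col1a1 had 70180, against 71687, Vim 45377, against 38714, Col1a2 29022, against 33764, and Dcn 22813, against 19555. The rest of the measured ones were dim. Thy1 had 117, against 128, and Acta2 63, against 66. The scaled log2 ratios had a median of -0.06 for the epithelial list (1 positive and 5 negative), -0.25 for the fibroblast list (3 positive and 5 negative) and -0.27 for the immune and endothelial list (0 positive and 5 negative), beside -0.04 over all genes. The unscaled signals of the measured markers, which a few bright probes dominate, summed to 37203 units in Na2S3 cells and 33221 in water cells for the epithelial list, to 352767 and 335663 for the fibroblast list, and to 3309 and 3484 for the immune and endothelial list. No marker in these lists reached a 2-fold difference (0 of 19 measured), against 1.56% of all genes. A count of 0 is near that background for lists of this size. The part of cell composition in the values below was not tested. In bulk RNA, fewer cells of a type and less RNA per cell cannot be told apart.

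The MYC family genes differed in direction. Myc was 5.49-fold higher in the Na2S3 array, Mycn was 3.12-fold lower, and Mycl was below the detection criterion on both arrays. The other 7 members all lay within 1.5-fold. Signals were compared after each array was scaled to its 75th percentile over non-control probes (478 units on the Na2S3 array and 413 on the water array), which subtracts 0.21 from every log2 ratio. A difference counted as called when its log2 ratio was 1 or more either way, since 1 array per group allows no test.

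**Figure D1:**
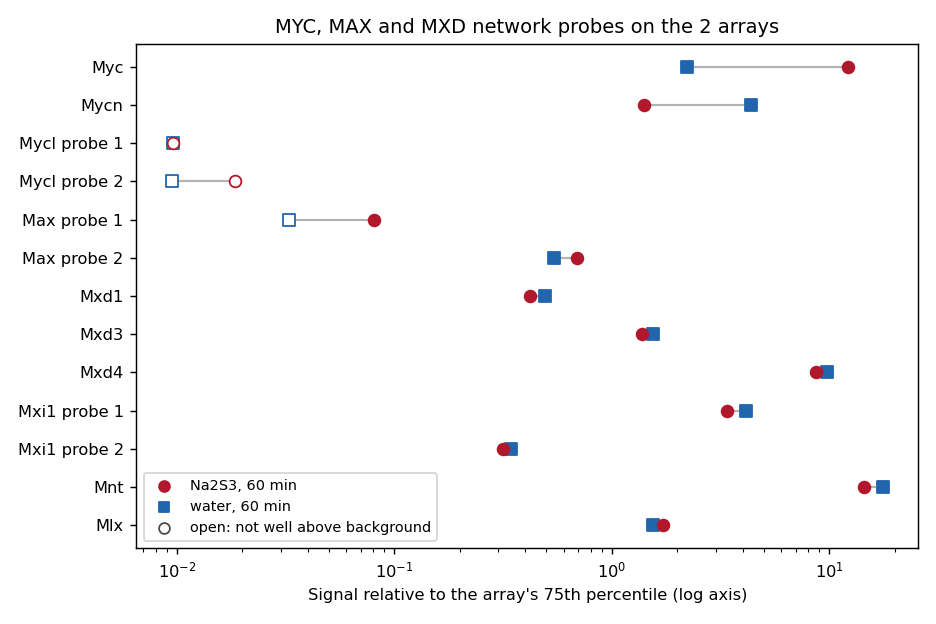
Signal of each network probe on the Na2S3 array (red circles) and the water array (blue squares), relative to that array's 75th percentile, on a log axis. Open symbols mark signals not well above background, and levels can be compared along a row but not between probes. The Myc row has Na2S3 at 12.2 and water at 2.21, the Mycn row has Na2S3 at 1.40 and water at 4.38, and the symbols of the other probes measured on both arrays lie close together.

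Myc (NM_012603), the broadly expressed member of the family, was read by 1 probe at chr7:98957687-98957746 (rn4, plus strand), spotted 2 times. Its spots gave 6005 and 5609 units on the Na2S3 array, against 918 and 912 units on the water array. Both Na2S3 spots were above both water spots, and the pair at each array position gave log2 ratios of 2.50 and 2.41. The probe's log2 ratio was 2.46 with a spot error of 0.07. The spot error is the SD of log2 ratios among repeat spots of like brightness, divided by the square root of the probe's number of spots. Spots flagged as outliers are left out of it, and it covers error within an array only. Among 13062 genes measured on both arrays Myc had rank 15 from the highest ratio.

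Mycn (NM_001013096), the paralogue best known from embryonic and neural progenitors, was read by 1 probe at chr6:36508562-36508621 (rn4, minus strand), spotted 1 time. It had 670 units on the Na2S3 array, against 1813 units on the water array. The pixels within the spot had a median of 669.5 and an SD of 119 units on the Na2S3 array (44 pixels), against a median of 1732 and an SD of 240 on the water array (43 pixels), and neither spot carried an outlier flag. The log2 ratio was -1.64 with a spot error of 0.08, and Mycn had rank 20 from the lowest ratio. The value rests on this 1 spot per array. Mycn's mean lies in the range from 1024 up to 2048 units. In that range, 0 of 641 spot pairs of 111 repeat probes lay 2-fold or more from the mean of their probe. Spots flagged as outliers on either array were left out before this count, so it cannot show how often a single spot strays.

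The MYC family probes are distinct in sequence, as the first 30 of the 60 bases of the Myc and Mycn probes show.
Myc probe: aacttggacttcaaaaaatgcatgctcaaa
Mycn probe: gtactgtactaattcctacacggcctgtat
Over the probes of Myc, Mycn, Mycl and the rodent relatives Mycs and Bmyc, the longest run of bases shared by probes of different genes was 4 to 8 bases in the 14 pairs. Bmyc, which resembles the amino-terminal part of MYC, had 220 units on the Na2S3 array, against 216 units on the water array (log2 ratio -0.18). Mycs, an intronless relative, had no value because its probe was not well above background on both arrays. Mycl (NM_001191763 and XM_006238795), the third family member, had 4.56 and 8.80 units at its probes on the Na2S3 array, against 3.97 and 3.92 units on the water array. None of the 4 Mycl spots was well above background by the software's criterion, so no fold is given.

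Of the 9 members measured, 1 was at least 2-fold higher, against 0.942% of all genes measured (123 of 13062), and 1 was at least 2-fold lower, against 0.62% (81 of 13062). Both directions together held 2 of the 9 members, against 1.56% of all genes (204 of 13062). The median log2 ratio of the 9 was -0.17, and that of all genes was -0.04. The 9 genes were 3 with a positive ratio (Myc, Max and Mlx) and 6 with a negative one. The same genes were called under all 9 alternative settings of background correction, scaling, filter and probe rule, where Myc ranged from 2.40 to 2.48 and Mycn from -1.64 to -1.55. Each has 1 probe with no flagged spot, so the settings for filter, probe rule and outlier spots could not change its probe value. Scaling to the median of probes above background gave Myc 2.46, as in the main setting. Quantile normalization and the deposited table both gave 2.48.

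**Figure D2:**
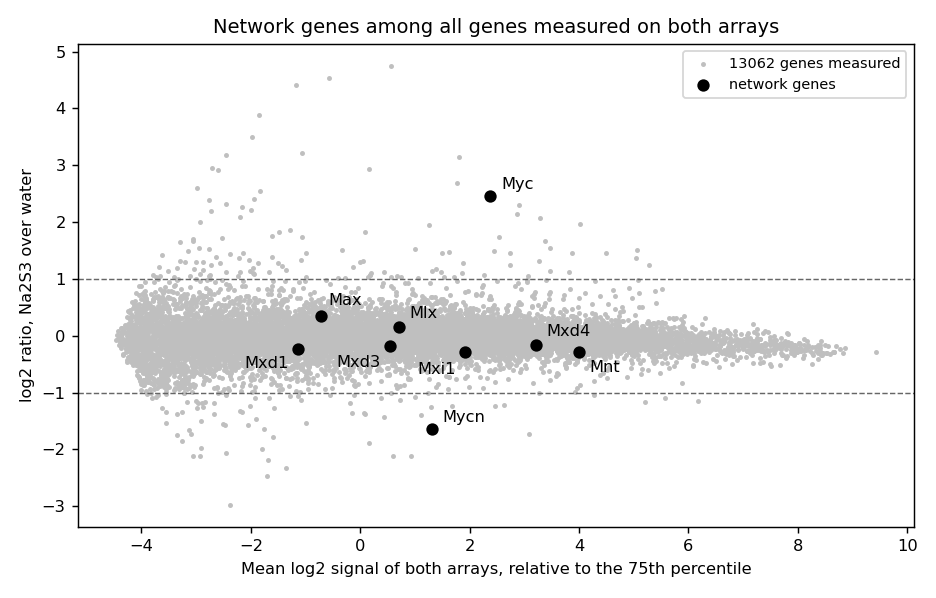
Log2 ratio of the Na2S3 array over the water array against the mean log2 signal of both arrays, for 13062 genes (grey) and the 9 network genes measured (black). Dashed lines mark log2 ratios of 1 and -1. Myc at 2.46 and Mycn at -1.64 stand outside the band, and the other 7 network genes lie inside it between -0.29 and 0.34.

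Max, the obligate partner of every MYC protein, had probes at separate places on its transcripts. The probe for NM_022210 at chr6:99530023-99530082 (rn4, minus strand) had 329 units on the Na2S3 array, against 224 units on the water array, a log2 ratio of 0.34 with a spot error of 0.10. With normexp background correction (a model of signal plus background) the ratio was 0.24. The probe for the predicted variant XM_008764846 at chr6:99530766-99530825 was well above background in Na2S3 cells alone, with 38.6 units there, against 13.5 units in water cells. The lowest signal called well above background on the water array, over all probes, was 18.3 units. After scaling, this probe's Na2S3 signal was 1.82-fold above that floor, which is not a limit for this spot. The value is therefore no lower bound, and the probe's spot error was 0.40. Both probes were higher on the Na2S3 array, and the probe measured on both arrays stayed under 2-fold. The first 30 bases of each are given because the probes read different stretches of the gene.
Max NM_022210 probe: ggagaaggcaagatcaagtgcccaactgca
Max XM_008764846 probe: tttgttcctggggaattcacttctcttcct

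The repressor partners of MAX each had a small negative log2 ratio. Mnt (NM_001105807), the most widely expressed of them, read at chr10:62161589-62161648, had 6875 units on the Na2S3 array, against 7291 units on the water array. Its log2 ratio was -0.29 with a spot error of 0.07. Mxi1 (NM_013160) had 1620 units on the Na2S3 array, against 1716 units on the water array at the brighter probe (chr1:259549420-259549479), a log2 ratio of -0.29 with a spot error of 0.08. The dimmer Mxi1 probe, whose 60 bases span 15459 bases of the genome and therefore a splice junction, had 151 units on the Na2S3 array, against 142 units on the water array, a log2 ratio of -0.12. Mnt and the brighter Mxi1 probe were lower in Na2S3 cells before scaling as well, whereas the dimmer Mxi1 probe was lower only after it. Most of the ratio of Mnt and of the brighter Mxi1 probe is the 0.21 that the scaling subtracts.

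The MXD genes, which are often induced when cells leave the cycle, also had small ratios. Mxd1 (NM_001100749) at chr4:120801994-120802053 had 201 units on the Na2S3 array, against 203 units on the water array, a log2 ratio of -0.23 with a spot error of 0.16. Mxd3 (NM_145773) at chr17:15349346-15349485 had 657 units on the Na2S3 array, against 642 units on the water array, a log2 ratio of -0.17 with a spot error of 0.08. Mxd4 (NM_001108364) at chr14:82264481-82264540 had 4168 units on the Na2S3 array, against 4039 units on the water array, a log2 ratio of -0.16 with a spot error of 0.07. The unscaled signals of Mxd3 and Mxd4 were thus slightly higher in Na2S3 cells, and their negative ratios come from the scaling. Those of Mxd1 were nearly equal, and most of its ratio is the 0.21 that the scaling subtracts. The ratios of Mxd1, Mxd3, Mxd4, Mxi1 and Mnt were negative under all 9 alternatives, from -0.30 to -0.12, and each lay within a range that holds many other genes. For Mxi1, 14.1% of all genes had a ratio as low or lower, and for Mxd4 28.4%.

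Mlx (NM_001034112), the partner of the MONDO proteins, at chr10:90108096-90108155, had 820 units on the Na2S3 array, against 639 units on the water array. Its log2 ratio was 0.15 with a spot error of 0.08, and 20.8% of all genes had a ratio as high or higher. Among the 4 members whose promoter window held the E-box, Max and Mlx had positive ratios and Mnt and Mxd4 negative ones.

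**Figure D3:**
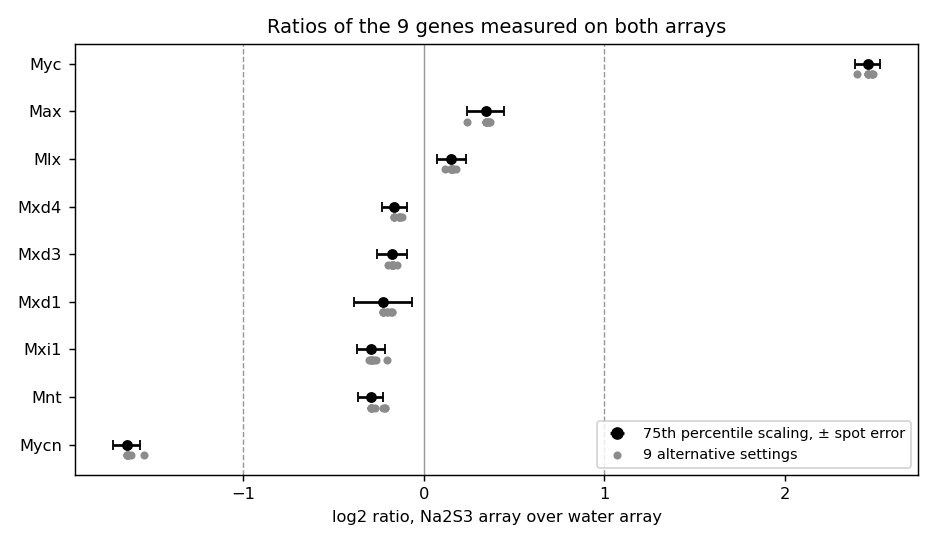
Log2 ratio of the Na2S3 array over the water array for the 9 network genes measured on both, with the spot error as bars (black) and the values under 9 alternative settings (grey, below). Dashed lines mark log2 ratios of 1 and -1. Myc and Mycn stay outside these lines in every setting shown, and the other 7 genes stay inside them with the same sign.

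The genes closest to Myc in the order of ratios were Ptgs2 (2.68), Iapp (2.59) and Osgin1 (2.55) above it and Dusp5 (2.41), Eid3 (2.38) and Btg2 (2.32) below it. Likeness here is the difference in log2 ratio over 2 arrays. These genes were picked by that same ratio, so small differences from Myc follow from the choice and test nothing. Iapp, Osgin1, Dusp5, Eid3 and Btg2 differed from Myc by 0.05 to 0.14 in size, with spot errors of the difference of 0.15 to 0.34. Ptgs2, the inducible cyclooxygenase gene, stood 0.22 above Myc, with an error of 0.09 for that difference. With normexp background correction Myc stayed at 2.40 and Ptgs2 at 2.55. The dimmer neighbours stood at 1.61 (Osgin1), 1.47 (Dusp5), 1.18 (Btg2), 1.14 (Eid3) and 1.09 (Iapp) in that setting. Myc then had rank 7 and Mycn rank 8 from their ends of the order, and with no filter on dim probes they had ranks 147 and 534 of 27234 genes.

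Genes that MYC is known to induce mostly had small ratios at 60 min. Of 83 measured members of the nucleolar, metabolic and growth lists, 1 was at least 2-fold higher (background 0.942%), 0 were at least 2-fold lower (background 0.62%) and 82 lay within 1.5-fold, as did 93.6% of all genes. Their median log2 ratio was 0.01, beside -0.04 over all genes. They had 45 positive and 38 negative ratios, beside 5669 and 7393 over all genes. The gene past 2-fold was Slc7a5, a large neutral amino acid transporter gene that ATF4 also induces, at 1.37 (0.76 with normexp).

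Within these lists the nucleolar genes had a median of 0.08 over 29 genes, with 0 past 2-fold in either direction. They had 21 positive and 8 negative ratios, a larger positive share than over all genes (5669 and 7393). Polr1a (0.37, and 0.12 with normexp), Ppan (0.31), Tbrg4 (0.28) and Nob1 (0.25) had the largest ratios of that list. The metabolic genes had a median of -0.04 over 29, and after Slc7a5 the largest ratios were those of the glucose transporter gene Slc2a1 (0.32), Fasn (0.28) and Gart (-0.27, and -0.01 at its other probe). The growth genes had a median of -0.03 over 25. The cyclin gene Ccnd2 and the telomerase gene Tert both stood at -0.36, Ybx1 at -0.30 and Ccnd1 at -0.20. Tert was dim, with 58.2 units on the Na2S3 array, against 64.7 units on the water array, and a spot error of 0.34. Ybx1 ranged from -0.30 to -0.13 over the 9 alternatives.

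Genes that MYC is known to repress had no common direction, with 7 positive and 7 negative ratios among 14 measured. At the 2-fold rule 1 of the 14 was called higher (background 0.942%) and 0 were called lower (background 0.62%), and 10 of the 14 lay within 1.5-fold (71.4%), beside 93.6% of all genes. Btg2, an anti-proliferative early gene that p53 also induces, stood at 2.32, Cdkn1a, a cell cycle inhibitor gene, at 0.95, Gas1 at -0.87 and Gadd45a at 0.64. Taken as the median over its probes, Cdkn1a stood at 1.03. The list's median of -0.04 was the same as that of all genes to 2 decimals and was positive under 4 of 9 alternatives.

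**Figure D4:**
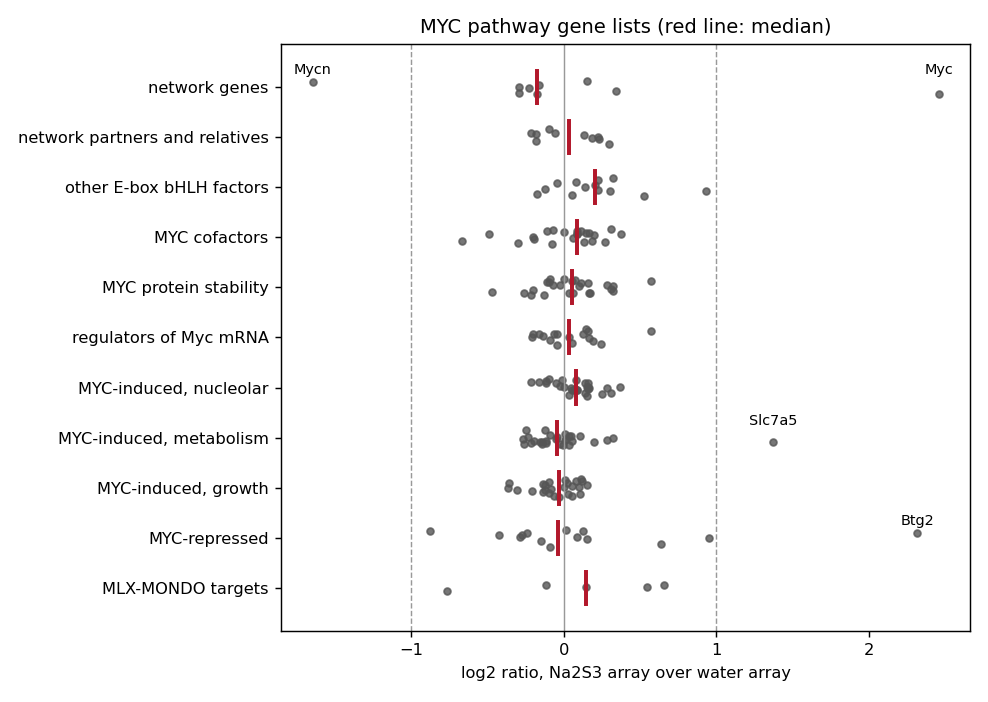
Log2 ratio of the Na2S3 array over the water array for each measured gene of the network and of 10 related lists (points, spread vertically for visibility), with the list median as a red line. Dashed lines mark log2 ratios of 1 and -1. Beyond these lines stand Myc, Mycn, Slc7a5 and Btg2, and the medians lie between -0.17 and 0.20.

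No measured partner or regulator of the network was past 2-fold, and with 1.56% of all genes past it in either direction a count of 0 is near the background for lists of this size. The 10 measured relatives and corepressors (0 past 2-fold) had a median of 0.04, beside -0.04 over all genes. The MYC-binding repressor gene Zbtb17 (Miz-1) stood at 0.29, Mga, which encodes another MAX partner, at 0.23 (0.10 with normexp) and Hdac1 at -0.21. Sin3a and Sin3b, which encode the corepressors of the MXD proteins, had -0.18 and -0.06. The 22 measured MYC cofactors (0 past 2-fold, background 1.56%) had a median of 0.09. Ccnt1 and Hexim1, which encode a subunit and an inhibitor of the elongation kinase P-TEFb, stood at -0.66 (-0.34 with normexp) and -0.49 (-0.32 as the median over its probes). The chromatin cofactor gene Trrap stood at 0.31, and the probes of Bptf disagreed in sign, at 0.37 for the brighter and -0.13 for the other.

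Factors that set MYC protein turnover had 0 of 25 measured genes past 2-fold (background 1.56%) and a median of 0.06. Usp22, a deubiquitinase gene, stood at 0.57 (0.11 with normexp), and the MYC kinase gene Pim3 at 0.32. Aurka, a kinase gene, stood at -0.47 at its brighter probe and 0.05 at the other, and Gsk3b, another MYC kinase gene, at 0.32 at its brightest probe, with 0.02 to 0.42 over its 5 probes. Fbxw7 and Skp2, which encode ubiquitin ligase subunits for MYC, had -0.09 and -0.26. Factors that act on the Myc gene or its mRNA had 0 of 17 past 2-fold (background 1.56%) and a median of 0.03, led by Srf, the serum response factor gene, at 0.57, then Hnrnpd at 0.25, Pabpc1 at -0.21 and Hnrnpk at -0.20. The sign of Pabpc1 was positive in 3 of 9 alternatives, and Hnrnpk ranged from -0.20 to -0.04 over the 9.

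Other bHLH factors that read E-boxes had 0 of 13 measured genes past 2-fold (background 1.56%) and a median of 0.20, with 10 positive and 3 negative ratios. All genes had a median of -0.04, with 5669 positive and 7393 negative ratios. Bhlhe40, a repressor gene of the clock and hypoxia responses, stood at 0.93, the clock factor gene Bmal1 at 0.52, and Tfeb and Tfe3, the lysosomal regulators, at 0.33 and 0.30. Targets of the MLX and MONDO proteins, 5 measured and 0 past 2-fold (background 1.56%), had mixed signs. Txnip, the thioredoxin-interacting protein gene, stood at -0.76, while Klf10 had 0.66, Arrdc4, an arrestin-domain gene co-regulated with Txnip, 0.54 (0.19 with normexp) and Acaca 0.15.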

How the data were processed

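Total RNA from IEC6 cultures, 1 sample per group, was amplified, labelled and hybridised to 1 Agilent array each, per the labels' protocols; groups come from the treatment label. The deposited scanner files hold linear intensity values, made with Agilent Feature Extraction in version 10.7.1.1 per the file headers and 9.5.1.1 per the submitters' processing notes. Per the file headers, the software subtracted a fitted spatial background surface and applied a multiplicative detrend to each processed signal, within an array only. The authors' value table has linear intensity in 2 columns that share a median of 19.3, and how they were normalized is not stated in the labels. The sorted values of the 2 columns differ by at most 0.36. Their 2-fold counts (141 genes higher and 67 lower) equal those of quantile normalization here, so these alternatives are nearly 1 setting.

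Outlier spots (390 on the Na2S3 array and 448 on the water array) were left out, and 0 spots were saturated. Spots of 1 probe were averaged on the log2 scale, and signals were then set relative to the array's 75th percentile. A probe counted as measured when more than 50% of its spots were well above background on each array. A gene's value is its brightest measured probe, and ratios are Na2S3 over water. Of 45598 probes, 21102 were named by accession through RefSeq (GRCr8), 14750 by the file, and 9746 had no gene name. Probe coordinates are those of the files (rn4), and exon positions were not analysed here. Genes were called at a log2 ratio of 1, with no test. Text names all members at every probe, up to 4 genes per list with the largest ratio and any past 2-fold, and the 3 genes on either side of Myc. Further genes (Sin3a, Sin3b, Fbxw7, Skp2 and Bmyc) were chosen after their values were seen. Members and lists were chosen with earlier results of these data known. The precision is limited by the number of arrays (1 per group). The summaries were tested on simulated data. The 9 alternatives were normexp (offset 50), median, quantile, loess and spike-in scaling, no dim-probe filter, median over probes, outlier spots kept, and the deposited table (limma 3.58.1, R 4.3.3, Python 3.11.15).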

Additional observations from a re-analysis of the deposited data

How the results depend on the processing

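The ratio of Myc ranged from 2.40 to 2.48 and that of Mycn from -1.64 to -1.55 over 9 alternatives, with 1 member called higher and 1 called lower in each. The settings for filter, probe rule and outlier spots could not change the probe values of Myc and Mycn. The signs of the other 7 members measured were the same in all 9, and the median of MYC-induced genes stayed between 0.01 and 0.06. The count of all genes at least 2-fold higher was 61 with normexp and 1062 with no filter on dim probes, against 123 as reported, and the count of genes at least 2-fold lower was 31 and 1545 in those settings, against 81. With no filter, dim probes with no settled signal enter the count, and higher genes were 40.7% of the calls, against 60.3% as reported. That share was 66.3% with normexp and with loess and 67.8% with quantile normalization and in the deposited table. Slc7a5 fell below 2-fold with normexp (0.76), and Cdkn1a passed it as the median over its probes (1.03). The normexp offset adds 50 units to every spot, which by construction makes the ratios of dim probes smaller in size. How much of the normexp differences this accounts for was not tested. Of 45 genes named by the rule outside the network, 1 (Pabpc1) had another sign in some setting. No paired analysis was possible because each group has 1 array, and for the same reason no array could be left out. Mycl and the dimmer Max probe are limited by signal over background.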
